A study of Mus musculus with 2 samples.

Results

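Cytochrome P450 genes, the mouse Cyp families, were compared between mouse heart and mouse embryonic fibroblasts (MEF), connective-tissue cells grown from embryos. Every gene whose platform symbol begins with Cyp and a digit was taken, except Cyp51 and Cyp26b1, which left 78 of the 19532 genes measured. They were read by 110 of the 32664 probes that carry 1 gene symbol. RNA of 2 hearts, labelled heart-1 and heart-2 and taken without culture or treatment, was hybridised on a two-colour Agilent array each, with heart RNA in Cy3 and MEF RNA in Cy5. The MEF were kept in medium with fetal bovine serum. The labels name no strain, age or sex, and leave unstated if separate animals gave the hearts and if the MEF RNA was 1 preparation. Each p-value below hence reflects how far these 2 arrays differ, in the gene and over all genes, possibly for technical reasons. It takes no account of how MEF cultures vary.

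P450 enzymes are haem proteins that insert 1 oxygen atom of molecular oxygen into a substrate. Most sit in the endoplasmic reticulum and take electrons from the reductase Por, while a few sit in mitochondria and take them from the ferredoxin Fdx1. Families 1 to 3 mainly oxidise foreign compounds in the liver. The other enzymes act on fatty acids, eicosanoids, steroids, bile acids, vitamin D and retinoic acid. In heart and vessels, P450 enzymes are best known for turning arachidonic acid into epoxides that relax vessels and into hydroxy acids that constrict them.

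All values are log2 ratios of the channels, 1 per gene and array, averaged over the probes of a gene. The files do not state the direction of the ratio. It was read as heart over MEF because all 22 cardiac sarcomere genes listed for the check were positive, with array medians of 6.22 and 6.25. Of 14 fibroblast genes, 14 were negative, with both array medians at -4.32. This direction is likely rather than stated, and no array had the dyes exchanged, so a dye bias of a probe stays in its ratio. Channel intensities were not used here, so whether a probe stood above background is unknown, and no gene's level can be set against another's. A call means an adjusted p under 0.05 from limma against a ratio of 0, adjusted over all 19532 genes. In whole tissue, fewer cells of a type and less RNA per cell cannot be told apart.

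Many P450 genes had ratios near 0, and a few had very large ones. Of the 78 genes, 29 were called higher in heart (37.2%) and 16 lower (20.5%), against 33.8% higher and 39.3% lower over all genes. In either direction 57.7% of the P450 genes were called, against 73.1% of all genes. At least 2-fold apart on both arrays were 15 higher genes (19.2%) and 7 lower genes (8.97%), against 18.1% higher and 18.5% lower over all genes. Together these were 22 P450 genes (28.2%), against 36.6% of all genes. The shares on the higher side were thus close to those of all genes under either rule. The P450 genes had a median log2 ratio of 0.069 and all genes of -0.038, and the median absolute ratio was 0.56 for P450 genes and 0.73 for all genes. Either array alone gave the P450 genes a higher median, 0.16 for heart-1 and 0.15 for heart-2, against -0.026 and -0.13 for all genes. The mean of 36 P450 genes (46.2%) lay within 0.5 of 0, against 38.4% of all genes. None of these differences between the P450 genes and all genes was tested. The counts of calls in each group and list below are to be read beside the same shares, 33.8% higher and 39.3% lower over all genes. No group or list was tested against them.

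**Figure D1:**
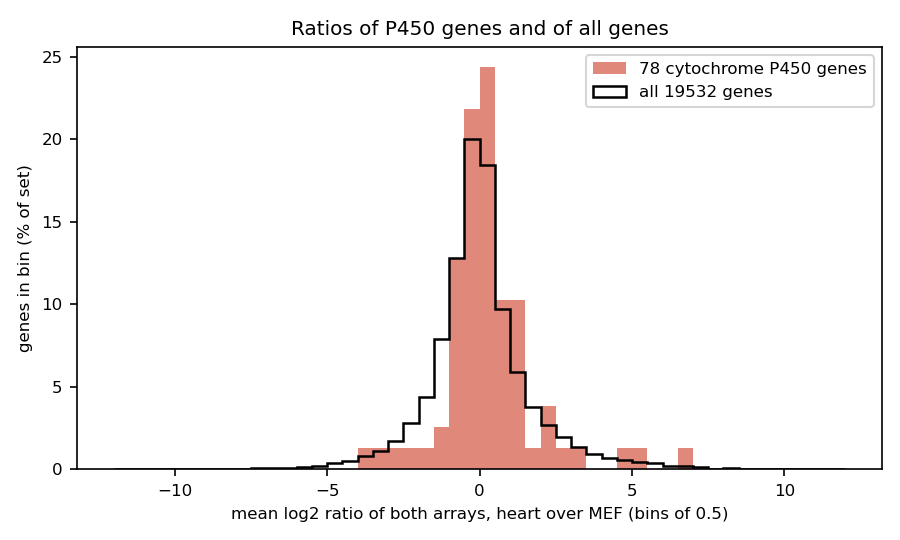
Share of genes (percent of each set, vertical axis) by mean log2 ratio of heart over MEF in bins of 0.5 (horizontal axis), for the 78 P450 genes (filled) and all 19532 genes (line). The P450 genes pile up near 0 and run from -3.85 to 6.86.

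The promoters of 6 genes are shown because these genes carry the largest ratios or lie in the Cyp4f row of neighbouring genes that split in direction. Each stretch is the 250 bases before the gene's start from RefSeq, build GRCm38.p6. Cyp4b1 is at chr4:115647722-115647971 on the minus strand, Cyp1a1 at chr9:57697363-57697612 on the plus strand and Cyp2e1 at chr7:140763569-140763818 on the plus strand. Cyp4f14 is at chr17:32917357-32917606 on the minus strand, Cyp1b1 at chr17:79715062-79715311 on the minus strand and Cyp4f16 at chr17:32536307-32536556 on the plus strand. Capitals mark GCGTG, the core of the element bound by the aryl hydrocarbon receptor (CACGC on the other strand), and TATAAA, the TATA box (TTTATA on the other strand).
Cyp4b1: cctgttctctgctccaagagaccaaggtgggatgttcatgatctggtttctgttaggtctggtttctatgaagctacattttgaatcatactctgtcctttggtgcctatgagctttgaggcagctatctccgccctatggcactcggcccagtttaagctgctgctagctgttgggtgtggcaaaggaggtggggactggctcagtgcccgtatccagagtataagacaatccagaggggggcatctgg
Cyp1a1: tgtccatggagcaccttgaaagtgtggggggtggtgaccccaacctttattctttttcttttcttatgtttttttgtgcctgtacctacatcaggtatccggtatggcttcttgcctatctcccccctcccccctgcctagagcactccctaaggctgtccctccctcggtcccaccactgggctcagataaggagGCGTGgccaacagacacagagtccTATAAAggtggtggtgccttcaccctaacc
Cyp2e1: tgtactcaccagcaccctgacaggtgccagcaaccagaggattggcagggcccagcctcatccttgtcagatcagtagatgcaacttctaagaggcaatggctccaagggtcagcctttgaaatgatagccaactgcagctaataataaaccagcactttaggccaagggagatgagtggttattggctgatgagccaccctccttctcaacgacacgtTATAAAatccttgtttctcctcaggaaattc
Cyp4f14: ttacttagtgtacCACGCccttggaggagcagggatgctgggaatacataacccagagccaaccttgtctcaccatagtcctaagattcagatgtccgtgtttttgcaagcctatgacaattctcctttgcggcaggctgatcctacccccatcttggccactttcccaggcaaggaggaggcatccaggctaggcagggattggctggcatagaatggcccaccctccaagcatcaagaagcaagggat
Cyp1b1: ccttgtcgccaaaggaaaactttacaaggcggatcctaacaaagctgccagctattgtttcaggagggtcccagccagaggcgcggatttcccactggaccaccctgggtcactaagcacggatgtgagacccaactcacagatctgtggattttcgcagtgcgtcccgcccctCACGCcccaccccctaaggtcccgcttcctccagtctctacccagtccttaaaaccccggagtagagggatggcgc
Cyp4f16: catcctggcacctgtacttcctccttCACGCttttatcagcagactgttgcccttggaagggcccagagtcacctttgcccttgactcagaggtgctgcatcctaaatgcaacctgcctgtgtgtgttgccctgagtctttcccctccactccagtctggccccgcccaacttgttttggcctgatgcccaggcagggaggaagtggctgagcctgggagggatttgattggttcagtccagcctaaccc

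Of the 78 genes, 57 had a promoter in the RefSeq table, and the first listed start was used for each. TATAAA on either strand was in 22 of the 57 (38.6%), against 13.0% of 27025 promoters of the same length, 1 per gene symbol. GCGTG on either strand was in 13 (22.8%), against 28.2% of all promoters. AGGTCA, the element on which many nuclear receptors dock, was in 13 (22.8%) against 13.8%. Each motif was counted on its own, also where it shared letters with another. The median promoter held 2 CpG dinucleotides among the 57 and 6 among the 27025, which were not limited to genes measured here. Of the 14 promoters of genes at least 2-fold higher in heart, 4 held TATAAA, 6 held GCGTG and 1 held AGGTCA. Of the 5 of genes at least 2-fold lower, 0 held TATAAA, 2 held GCGTG and 0 held AGGTCA. These matches describe letters in a window and were not tested.

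Among the P450 genes of families 1 to 3 that mainly handle foreign compounds, 15 of 31 were higher in heart, 4 were lower and 12 were not called (median 0.35). Cyp1a1, which oxidises polycyclic aromatic hydrocarbons and is a classic target of the aryl hydrocarbon receptor, had log2 ratios of 5.41 in heart-1 and 5.15 in heart-2. Both arrays put it far above MEF, with a mean of 5.28 ± 0.18 (SD, n = 2; 38.8-fold; limma adjusted p = 0.00139). Cyp1b1, of the same family and also a receptor target, which oxidises oestradiol and aromatic hydrocarbons, stood at -3.99 and -3.70. It was the lowest of the 78 genes, at -3.85 ± 0.20 (14.4-fold lower in heart; limma adjusted p = 0.00179), and its 2 probes had means of -4.31 and -3.38. Cyp1a2, the neighbour of Cyp1a1 and a liver enzyme, had 0.19 and 0.67 and was not called (limma adjusted p = 0.129). Cyp1a1 and Cyp1b1, both with 1 GCGTG in the promoter shown, thus lay at opposite ends of the group, 5.28 against -3.85, and only Cyp1a1 of the pair held TATAAA.

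Cyp2e1, which oxidises ethanol, acetone and paracetamol, had 4.36 and 4.72. It was 23.3-fold higher in heart (4.54 ± 0.26; limma adjusted p = 0.00187). Cyp2e1 is best known from liver, so hepatocyte markers are given beside it. Of 11 measured, 5 were called higher and 1 lower, and the means ran from -0.61 to 6.65, with Ahsg at 6.65 ± 0.18 and albumin, Alb, at 4.33 ± 0.19. The others called higher were Tdo2 at 2.56, Fgb at 1.54 and Tat at 0.70, and the gene called lower was Apoa1 at -0.61. The 2 probes of Tdo2 had opposite signs, with means of -0.21 and 5.33. The 5 not called, Ttr, Apoa2, Fga, Hpd and Apob, had means from -0.33 to 0.12. The part of such cells in the ratios of liver-type P450 genes was not tested.

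Of 5 Cyp2b genes, 4 were called higher in heart, 0 were lower and Cyp2b19 was not called (median 1.07). Cyp2b10, the mouse target gene of the receptor Nr1i3 (CAR) in liver, had 1.92 and 2.42 (2.17 ± 0.36; limma adjusted p = 0.00775), and its 2 probes had means of 1.38 and 2.95. Cyp2b13 had 1.43 and 1.24 (1.33 ± 0.13), over probes at 0.22 and 2.45. Cyp2b9 was called higher at 0.91 ± 0.09 although its 2 probes had opposite signs, at -0.28 and 2.11. Cyp2b23, at 0.99 and 1.14, fell just short of 2-fold on the heart-1 array. Nr1i3 itself, named after its value was seen, stood at 2.66 and 2.80 in heart over MEF. Cyp2b genes resemble each other closely, and which of them a probe reads cannot be told from these files.

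Cyp2d genes were also mostly higher, 5 of 7, with 1 lower and 1 not called (median 0.51). Cyp2d22, considered the mouse counterpart of the human drug-metabolising enzyme CYP2D6, had 1.50 and 1.39 (1.44 ± 0.08; limma adjusted p = 0.00249). Its 3 probes had means of 0.11, 1.59 and 2.64, so the size depends on the probe. Cyp2d26 reached 1.41 ± 0.08. Cyp2d13, a transcribed pseudogene in RefSeq, had -1.22 and -1.10 and was lower in heart (-1.16 ± 0.08; limma adjusted p = 0.00328).

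Outside these subfamilies, Cyp2s1, an enzyme of epithelia that dioxin can induce, had 2.01 on both arrays (4.02-fold higher; limma adjusted p = 0.00138). The Cyp3a genes, the chief drug-metabolising P450 genes of liver and gut, had 2 of 6 called higher and 0 lower, with a median of 0.095. Cyp3a13 was the highest of them at 0.80 and 1.22 (1.01 ± 0.30). All 4 Cyp2a genes had means between -0.66 and 0.026, and only Cyp2a22 was called, lower in heart at -0.66 ± 0.10.

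**Figure D2:**
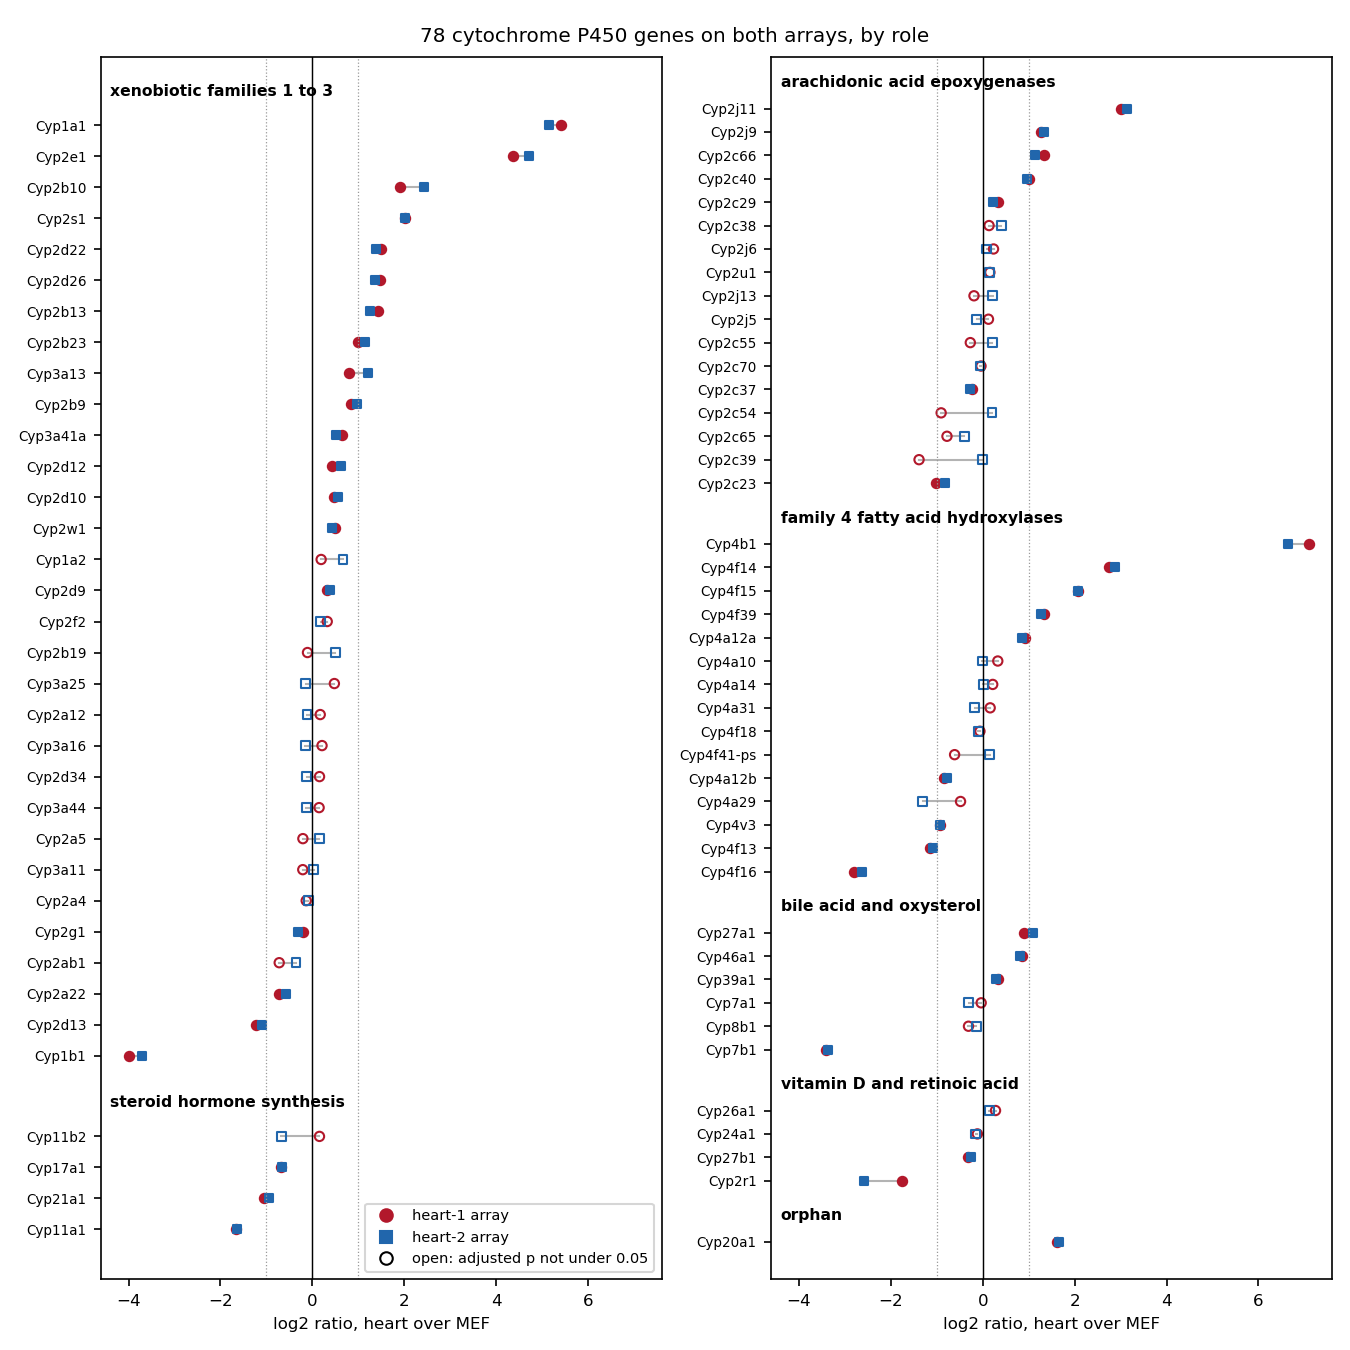
Log2 ratio of heart over MEF (horizontal axis) of each of the 78 P450 genes for heart-1 (circles) and heart-2 (squares), ordered by mean within roles. Filled symbols passed limma's adjusted p under 0.05, and dotted lines mark 2-fold. Cyp4b1, Cyp1a1 and Cyp2e1 lie above 4 and Cyp1b1 and Cyp7b1 below -3.

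The P450 genes of subfamilies Cyp2c, Cyp2j and Cyp2u gave few calls beside the 73.1% called over all genes. They were listed together as arachidonic acid epoxygenases, though not every member is one, Cyp2u1 being a fatty acid hydroxylase. Of 17, Cyp2c23 among them by a later addition, 5 were higher in heart, 2 were lower and 10 were not called (median 0.013). Cyp2j11 led with 3.01 and 3.15 (3.08 ± 0.09; 8.45-fold; limma adjusted p = 0.00141), over probes at 2.62 and 3.54. Cyp2j9 had 1.27 and 1.33 (1.30 ± 0.05; limma adjusted p = 0.00211). The remaining Cyp2j genes, Cyp2j5, Cyp2j6 and Cyp2j13, had means from -0.0034 to 0.16 and were not called.

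Means near 0 hid opposite probes in part of this subfamily. The 2 probes of Cyp2j6, an epoxygenase found in many tissues, had means of -1.27 and 1.59. The 3 probes of Cyp2j13 had -0.96, -0.88 and 1.87. Cyp2j5, the renal enzyme, had probe means of -0.032 and 0.025. Among Cyp2c genes, Cyp2c66 had 1.32 and 1.14 (1.23 ± 0.13; limma adjusted p = 0.00448) and Cyp2c23 had -1.01 and -0.82 (-0.91 ± 0.14; limma adjusted p = 0.00794). Cyp2u1, a fatty acid hydroxylase, had 0.15 and 0.16 and missed the threshold (limma adjusted p = 0.0507).

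Enzymes that act before and after the epoxygenases included some with large ratios. Among 11 genes of epoxide hydrolysis and eicosanoid synthesis, 5 were called higher, 3 lower and 3 not called (median 0.13). Ephx2, the soluble epoxide hydrolase that turns arachidonic acid epoxides into diols, had 4.90 and 4.67 (4.79 ± 0.16; 27.6-fold; limma adjusted p = 0.00138). Alox12, a lipoxygenase, reached 4.91 ± 0.10, over 3 probes from 1.65 to 6.83. Pla2g4a, the phospholipase that frees arachidonic acid, was lower at -3.26, and Ptgs2, the inducible cyclooxygenase, at -6.13 ± 0.17. The microsomal epoxide hydrolase Ephx1, named after its value was seen, went the other way from Ephx2 with a mean of -1.61. Ptgis and Tbxas1, which are P450 enzymes by fold although not by symbol and make prostacyclin and thromboxane, were not called, at 0.040 and 0.13.

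Family 4, the fatty acid hydroxylases, held both the highest of all P450 genes and one of the lowest. Of 15, 5 were higher in heart, 4 were lower and 6 were not called (median -0.0057). Cyp4b1, a hydroxylase of fatty acids and of foreign compounds that is abundant in lung, had 7.09 and 6.64. Both arrays put it above every other P450 gene, at 6.86 ± 0.32 (117-fold; limma adjusted p = 0.00161), from 1 probe. Markers of other cell types that heart holds are given beside it, and they went both ways by cell type. All 10 endothelial markers were called higher, with means from 2.11 to 7.53, and so were 6 of 7 adipocyte markers, whose means ran from -0.060 to 5.94. The adipocyte hormone gene Adipoq had 5.18 in heart-1 and 4.01 in heart-2. Of 8 macrophage markers 1 was higher and 6 were lower, from -3.21 at Cd14 to 6.67 at Cd163. Of 6 smooth muscle markers 2 were higher and 4 lower (median -1.34). The part of these cells in the Cyp4b1 ratio was not tested.

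Cyp4f genes, several of which inactivate leukotriene B4, split by gene. Cyp4f14, a leukotriene B4 hydroxylase, had 2.75 and 2.87 (2.81 ± 0.09; 7.02-fold; limma adjusted p = 0.00143). Cyp4f15 had 2.07 on both arrays (4.19-fold; limma adjusted p = 0.00137) and Cyp4f39, the skin enzyme for very long fatty acids, 1.34 and 1.27. Against these, Cyp4f16 had -2.80 and -2.63 (-2.71 ± 0.12; 6.56-fold lower; limma adjusted p = 0.00172), over probes at -3.42 and -2.01, and Cyp4f13 had -1.15 and -1.08 (-1.12 ± 0.05). Cyp4f18, the leukotriene hydroxylase of neutrophils, had -0.062 and -0.094 and was not called.

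The Cyp4a genes, whose liver forms are standard targets of the fatty acid receptor Ppara, gave no common direction. Cyp4a14 had 0.22 and 0.0093 and Cyp4a10 0.33 and -0.0099, and neither was called. The 4 Cyp4a10 probes had means from -1.44 to 1.31. Ppara itself stood at 5.46 and 5.56. Cyp4a12a was called higher at 0.89 ± 0.04 and its near-identical copy Cyp4a12b lower at -0.82 ± 0.05, so probe and copy cannot be told apart here. Cyp4v3, the mouse counterpart of a human fatty acid hydroxylase linked to corneoretinal dystrophy, had -0.94 on both arrays (1.92-fold lower; limma adjusted p = 0.00254).

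Genes of steroid hormone synthesis were lower in heart or not called. Of the 4 measured, 0 were higher and 3 were lower, with a median of -0.83. Cyp11a1, which cuts the cholesterol side chain in the first step, had -1.66 and -1.64 (-1.65 ± 0.02; 3.13-fold lower; limma adjusted p = 0.00154). Its 3 probes disagreed, with means of -3.35, -1.61 and 0.015. The probe at 0.015 lay on both arrays in the band of near-constant values described below. With probes in that band left out, the mean of Cyp11a1 was -2.48. Cyp21a1, the adrenal hydroxylase, had -1.06 and -0.94, and Cyp17a1, needed for cortisol and sex steroids in humans, had -0.68 and -0.66. Cyp11b2, the aldosterone synthase, had 0.15 on heart-1 and -0.67 on heart-2 and was not called.

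The supply of cholesterol and the steroid dehydrogenases mostly lay on the same side. Of 11 measured, 2 were called higher, 7 lower and 2 not called (median -0.61). Hsd17b1, which makes oestradiol from oestrone, was lowest at -4.37 ± 0.13 and the sterol carrier Stard4 was at -1.89, while Hsd11b1, which regenerates active glucocorticoid, was 13.9-fold higher in heart at 3.80 ± 0.07 and the lysosomal protein Stard3 was at 0.80. Of 6 markers of adrenal and gonadal cells, 0 were called higher and 4 lower, with means from -1.47 to -0.15. Star and Hsd3b1, both called lower, are counted in this list and in the supply list above, so the counts are not separate. The part of such cells in the Cyp11a1 ratio was not tested.

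Of the 6 P450 genes of bile acids and oxysterols, 3 were higher, 1 was lower and 2 were not called (median 0.069). Cyp7b1, which hydroxylates oxysterols and dehydroepiandrosterone, had -3.41 and -3.36. It was 10.5-fold lower in heart (-3.39 ± 0.03; limma adjusted p = 0.00136), the lowest of the 78 genes after Cyp1b1. Cyp27a1, a mitochondrial sterol hydroxylase, had 0.89 and 1.09 (0.99 ± 0.14; limma adjusted p = 0.00717). Cyp46a1, the cholesterol hydroxylase of neurons, reached 0.83 ± 0.03 and Cyp39a1 0.31 ± 0.03. Cyp7a1 and Cyp8b1, the liver enzymes that set the rate and the composition of bile acids, had means of -0.17 and -0.22 and were not called.

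Among 4 P450 genes of vitamin D and retinoic acid, 0 were higher and 2 were lower (median -0.21). Cyp2r1, the hydroxylase for the first step of vitamin D activation, had -1.77 on heart-1 and -2.59 on heart-2 (-2.18 ± 0.59; 4.53-fold lower; limma adjusted p = 0.018). Cyp27b1, which makes the active hormone, was at -0.29 ± 0.04, with probes at -0.66 and 0.077. Cyp24a1, which breaks it down, was at -0.14 and Cyp26a1, which breaks down retinoic acid, at 0.21, and neither was called. Cyp4x1, Cyp11b1, Cyp19a1 and Cyp26c1 were not analysed here. Cyp20a1, an orphan enzyme with no settled substrate, had 1.61 and 1.66 and was higher in heart (1.64 ± 0.04; 3.11-fold; limma adjusted p = 0.00166).

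P450 genes that sit near each other on a chromosome often differed. Rows of at least 4 measured P450 genes with successive starts within 1 Mb in RefSeq numbered 7. The row from Cyp4a29 to Cyp4b1 held 7 genes and ran from -0.90 at Cyp4a29 to 6.86 at Cyp4b1, whose other neighbours had means of at most 0.89. The 6 genes from Cyp4f39 to Cyp4f41-ps ran from -2.71 to 2.81, with 3 higher, 2 lower and 1 not called. In the row from Cyp2j13 to Cyp2j5, 2 of 5 genes were higher and 3 not called. The 12 genes from Cyp2s1 to Cyp2f2 gave 5 higher, 2 lower and 5 not called, and the 7 Cyp2d genes 5 higher, 1 lower and 1 not called. The 10 genes from Cyp2c55 to Cyp2c70 (-0.70 to 1.23) and the 5 from Cyp3a16 to Cyp3a25 (-0.092 to 0.58) stayed within narrower ranges.

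**Figure D3:**
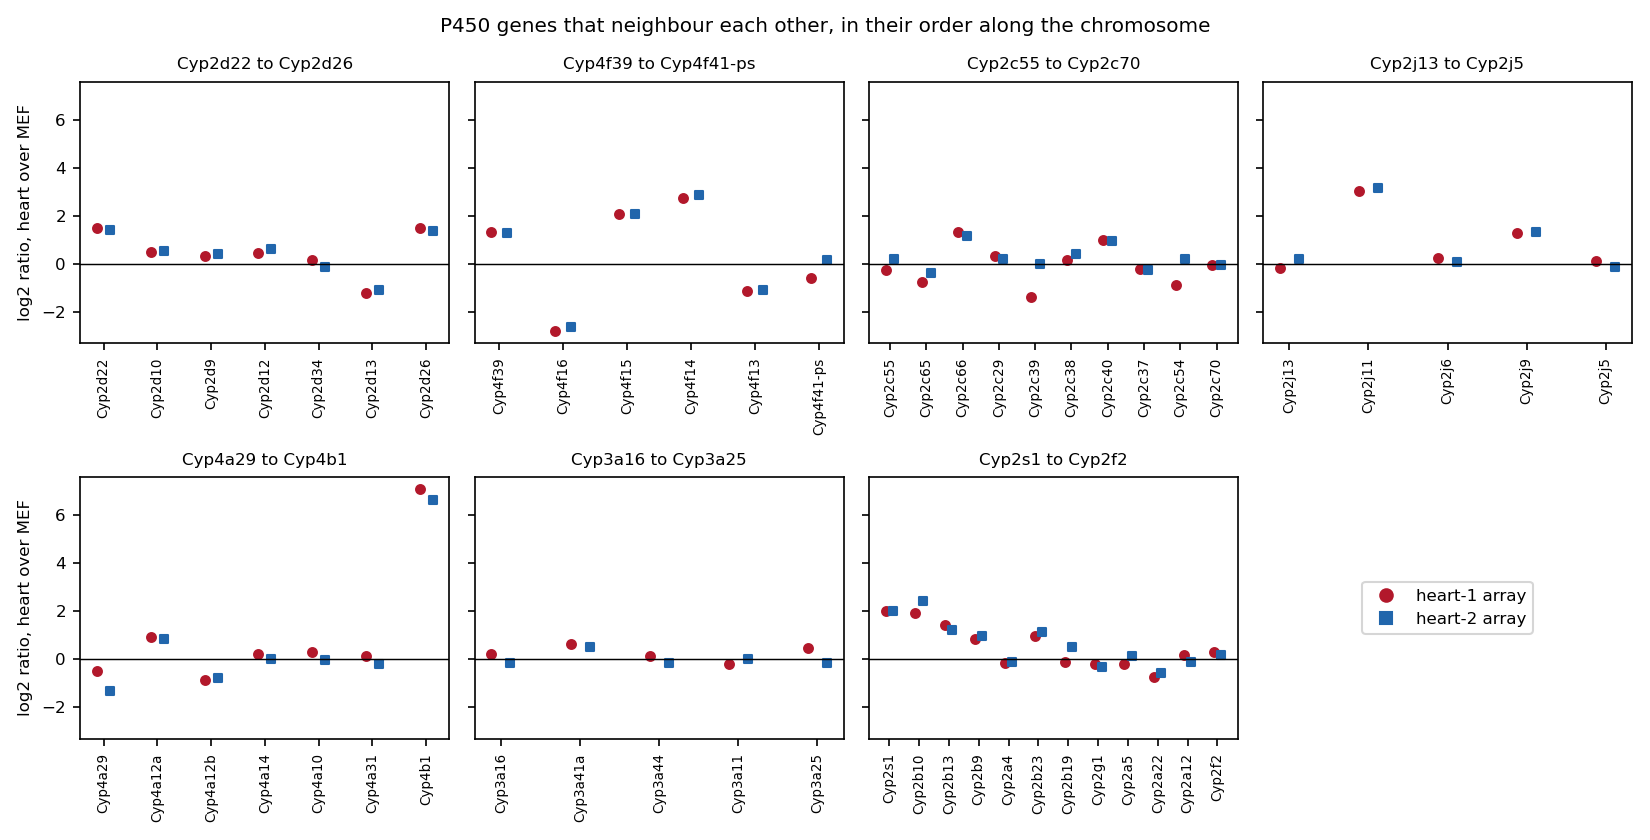
Log2 ratio of heart over MEF (vertical axis) for the 7 rows of neighbouring P450 genes, in chromosomal order (horizontal axis, not to scale), for heart-1 (circles) and heart-2 (squares). Cyp4b1 at 6.86 stands far above its Cyp4a neighbours, and Cyp4f16 at -2.71 comes next to Cyp4f15 at 2.07 in the order of measured genes.

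The electron donors and partners of P450 enzymes went both ways, with 5 of 11 called higher in heart and 6 lower (median -0.32). Fdx1, the mitochondrial ferredoxin, had 2.87 and 2.92 (2.90 ± 0.04; 7.46-fold; limma adjusted p = 0.00136), and Cyb5a, microsomal cytochrome b5, was at 0.87 ± 0.01. Cyb5b, the cytochrome b5 of the outer mitochondrial membrane, named after its value was seen, was lower at -0.32 ± 0.03. Pgrmc1, a haem-binding partner of P450 enzymes, was lower at -2.52 ± 0.02 and the cytochrome b5 reductase Cyb5r1 at -2.14 ± 0.04. Por and Fdxr, the reductases of the microsomal and mitochondrial chains, were not analysed here.

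Genes of haem, the P450 cofactor, were mostly higher in heart. Of 12 measured, 10 were called higher, 1 lower and 1 not called (median 1.07). Over all genes, 33.8% were called higher and 39.3% lower. Alas2, the enzyme of haem synthesis specific to red cells, was highest at 6.58 ± 0.08, and its counterpart in other cells, Alas1, named after its value was seen, was 7.99-fold higher. Fech, which inserts the iron, had 2.97 and 3.03. Hmox1, the inducible enzyme that breaks haem down, was the gene that was lower, at -3.24 ± 0.05. The other breakdown genes were called higher, with Hmox2 at 0.52, Blvra at 0.73 and Blvrb at 1.51, named after their values were seen.

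Receptors that control P450 genes, listed with some of their targets, went both ways, with 8 of 21 higher, 7 lower and 6 not called (median -0.10). Rxrg, a partner of many nuclear receptors, was highest at 7.20 ± 0.15, followed by Ppara at 5.51 ± 0.08. Ahr, the aryl hydrocarbon receptor, was the lowest with a mean of -1.68 (3.20-fold lower; limma adjusted p = 0.00148), and Rxrb was at -0.80 ± 0.02. Other genes of the Ahr pathway were named after their values were seen. Its repressor Ahrr, itself a target, was at 1.82 ± 0.03 and the target Nqo1 at 3.65 ± 0.06, both higher in heart like Cyp1a1. The target Tiparp was at -0.27 ± 0.04 and the partner Arnt at -0.54 ± 0.08, both lower like Cyp1b1. The 4 probes of Arnt had means of both signs, from -1.26 to 0.11.

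**Figure D4:**
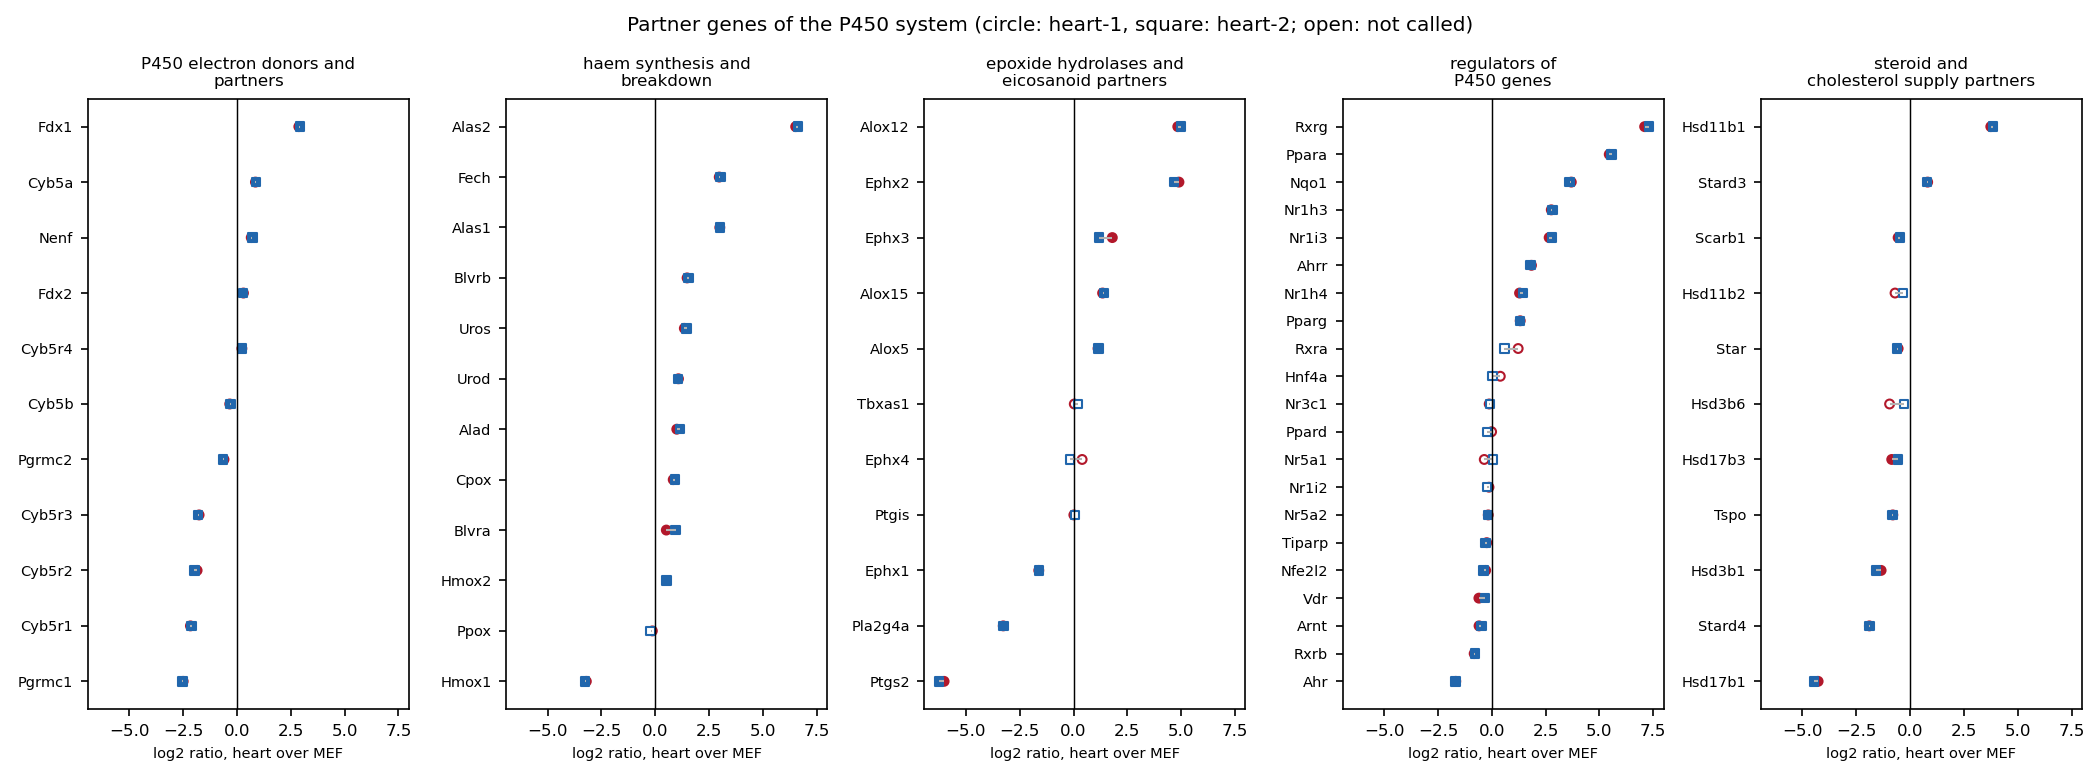
Log2 ratio of heart over MEF (horizontal axis) of the partner genes in 5 lists, for heart-1 (circles) and heart-2 (squares), ordered by mean. Open symbols were not called. Fdx1, Alas1, Ephx2 and Ppara lie far to the heart side, and Pgrmc1, Hmox1, Ptgs2 and Ahr to the MEF side.

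The hearts gave similar values for most P450 genes. The SD of the difference between the arrays was 0.36 on the log2 scale over the 78 genes and 0.32 over all genes. A difference of more than 0.5 was found for 9 of the 78 P450 genes, against 1602 of all 19532 genes. The sign differed between the arrays for 16 P450 genes (20.5%), against 10.9% of all genes. Part of this count is Cyp2a12, Cyp2d34, Cyp3a44 and Cyp4a31, which lie wholly in the band described below, positive on heart-1 and negative on heart-2. By its limits every gene wholly in the band has opposite signs, so it adds to both shares. It held 4 of the 16 P450 genes and 871 of the 2137 genes with differing signs over all genes. The medians over all probes also had opposite signs, 0.066 on heart-1 and -0.14 on heart-2. Cyp2c39 differed the most, at -1.39 on heart-1 and -0.012 on heart-2, followed by Cyp2c54 at -0.91 and 0.20. Cyp2r1, Cyp11b2 and Cyp4a29 each differed by 0.83. With 1 array per heart, a difference between the hearts could not be tested.

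Both arrays held a narrow band of near-constant values, from 0.1 to 0.2 on heart-1 and from -0.22 to -0.08 on heart-2. On both arrays at once it took in 9 of the 110 P450 probes (8.18%), against 6.24% of all named probes. All probes of 4 P450 genes lay in it, namely Cyp2a12, Cyp2d34, Cyp3a44 and Cyp4a31, which are named after their values were seen and had means from -0.0057 to 0.026.

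Probes of 1 gene disagreed about as often among P450 genes as elsewhere. Of 26 P450 genes with more than 1 probe, 12 had probe means of both signs (46.2%), against 39.1% of 8511 such genes in all, and 5 of the 12 were called on their mean, namely Cyp2b9, Cyp2c37, Cyp2g1, Cyp11a1 and Cyp27b1. The median range between probes was 0.93 for P450 genes and 0.95 for all genes. The widest ranges were 3.36 at Cyp11a1, 2.86 at Cyp2j6, 2.83 at Cyp2j13, 2.74 at Cyp4a10 and 2.53 at Cyp2d22. The other 52 P450 genes, Cyp4b1, Cyp1a1, Cyp2e1 and Cyp7b1 among them, rest on 1 probe each. The SDs given above do not cover this spread.

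**Figure D5:**
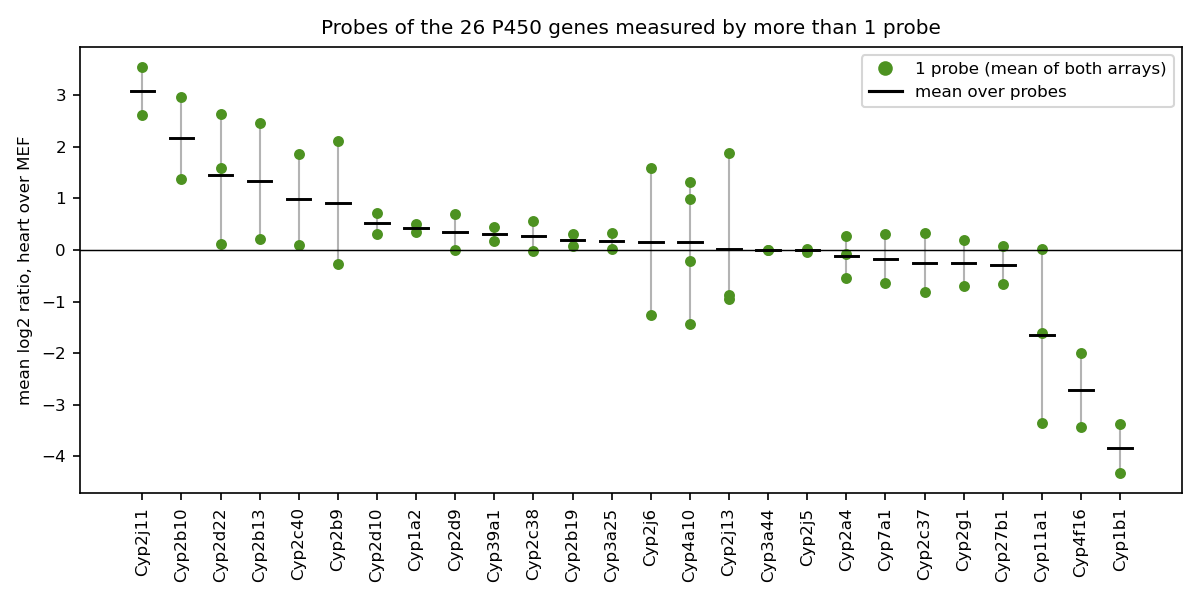
Mean log2 ratio of heart over MEF of both arrays (vertical axis) for each probe (dots) of the 26 P450 genes with more than 1 probe, with the mean over probes as a bar. The probes of Cyp11a1 span 3.36, while those of Cyp1b1 and Cyp2j11 keep 1 sign.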

How the data were processed

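Per the labels, heart RNA (Cy3) and MEF RNA (Cy5) were extracted with TRIzol and column clean-up. The authors deposited a value for each of 41174 probes on each array, made with Agilent Feature Extraction per the submitters' processing notes. No version, background correction or normalization is stated there. The deposited values were taken as log2 ratios because the largest absolute value, 11.62, would as a natural log or log10 exceed the range of a 16-bit scanner. Array medians were 0.066 and -0.14, so the centring is unknown.

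Probes were named from the platform annotation, where 45 had several symbols and 8465 none here. All 110 P450 probes matched RefSeq (GRCm38.p6) by gene identifier. No filter on low values was applied. Probes were averaged per gene and array, and limma 3.58.1 (R 4.3.3) set each gene's mean against a ratio of 0 (lmFit, eBayes, two-sided, Benjamini-Hochberg over 19532 genes). The code was also run on simulated data in which 200 genes changed. As 14283 genes were called here, that run cannot judge these calls. MEF RNA was the only control and had no arrays of its own. The 2 arrays leave 1 residual degree of freedom. To this eBayes added a prior variance from all genes, with 1.25 degrees of freedom. The smallest adjusted p, 0.00136, was shared by many genes. The number of arrays sets how precise a value can be.

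The P450 genes and all lists were chosen with earlier results of these data known. Named were all P450 genes called and at least 2-fold on both arrays, a set of key enzymes, the 5 widest in array difference and in probe range, and the 2 highest and 2 lowest called genes of each partner list, with Cyp2c23 added to the epoxygenases after the values were seen. Other genes are named as family, chromosome-row or marker examples. Tables were joined in Python 3.11.15. Alternatives covered centring, quantile scaling, probe summary, probe and gene filters, membership, the variance model, the null hypothesis and leaving out either array.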

Additional observations from a re-analysis of the deposited data

How the results depend on the processing

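No paired analysis was possible because there is 1 group, tested against 0. Of the 22 P450 genes called and at least 2-fold on both arrays, 22 kept their call under centring on the array median, quantile scaling, the probe median, leaving out the dense band and a robust variance prior, and so did the 21 that remained when genes with disagreeing probes were left out, which drops Cyp11a1. Most of these settings could change little. Among the 22, the probe median could alter the value of Cyp2d22 and Cyp11a1 only. Leaving out the band could alter that of Cyp11a1 only. Dropping genes with disagreeing probes, or changing the prior, left the values of the remaining genes as they were. Against a 2-fold change (limma treat), 13 P450 genes were higher and 4 lower, and Cyp2b13, Cyp2c66, Cyp4f13, Cyp2d13 and Cyp2r1 no longer passed. With each gene's own variance alone, on 1 degree of freedom, 8 were higher and 4 lower, and 14 of the 22 no longer passed, Cyp4b1, Cyp2e1 and Cyp1b1 among them. Under these settings 29.7% and 31.4% of all genes were called. The median log2 ratio of the P450 genes, 0.069, became 0.15 with centring, 0.096 with quantile scaling, 0.16 without the dense band and 0.16 without genes with disagreeing probes. It became 0.11 without Cyp4f41-ps, the only symbol marked as a pseudogene, with Cyp2d13 kept, and 0.026 with Cyp51 and Cyp26b1 counted. With 1 array left out it was 0.15 to 0.16, the number of genes at least 2-fold higher 16 to 18 and at least 2-fold lower 8 to 10. Signs turned for 7 genes that were not called. With centring, Cyp2j5 was at 0.076, Cyp4a31 at 0.074, Cyp2a5 at 0.053, Cyp2c55 at 0.048, Cyp2c70 at 0.030 and Cyp4f18 at 0.0018. With the probe median, Cyp2j13 was at -0.88. These turns follow from the shift of the zero and from the spread between probes. Signal over background could not be judged.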
